A study of Mus musculus with 2 samples.

Results

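The clustered histone genes are the 56 of 21113 rows in the deposited gene tables whose symbol begins with Hist1h, Hist2h, Hist3h or Hist4, the older mouse names for histone genes that lie side by side on a chromosome. They were taken by symbol alone, and all 56 were in both tables. The Hist1 group held 44 of them, Hist2 8, Hist3 3 and Hist4 1. By histone class there were 6 linker histone H1 genes, 13 H2A, 16 H2B, 10 H3 and 11 H4 genes. In the GENCODE annotation (mouse build GRCm38) 55 of the 56 were found, 44 within 2219 kb of chromosome 13, 8 within 50.3 kb of chromosome 3, 2 on chromosome 11 and 1 on chromosome 6.

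The RNA was from mouse mammary gland, strain C57BL/6, at postnatal week 6. There was 1 library of the wild-type genotype and 1 of the genotype Mir212/132 ILN/ILN, in which both copies of that microRNA locus carry an inserted cassette with an IRES, LacZ and Neo. Both libraries were made from polyadenylated RNA, so transcripts without a poly(A) tail were selected against in both. How many animals gave each sample is not stated in the labels, and the whole gland mixes epithelium, fat, blood and stroma. With 1 library per genotype no test was possible. Every interval below is an exact 95% interval that covers counting error only.

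Histones are the proteins around which DNA is wound: H2A, H2B, H3 and H4 form the core of the nucleosome and H1 binds the linker between nucleosomes. Most clustered histone genes are switched on in S phase, when DNA is copied, and their messenger RNAs usually end in a conserved stem-loop, bound by the stem-loop binding protein SLBP, in place of a poly(A) tail. Some of these genes also carry a downstream polyadenylation signal, and polyadenylated forms of their transcripts are known, above all in cells that have left the cell cycle. Some unclustered histone genes, such as those of the variants H3.3 and H2A.Z, make ordinary polyadenylated messages throughout the cell cycle.

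The ends of the annotated transcripts are shown for abundant members, because the stem-loop and the polyadenylation signal bear on what poly(A) selection can recover. The stem-loop was searched as the letters GGNNC, TTTT and NAGNNCC in direct succession on the sense strand, N being any base. It was present in the longest GENCODE transcript of 36 of 55 members (65.5%), against 64 of 20149 genes of the table (0.318%). In the lines below, from GENCODE, 5′ to 3′ on the sense strand, capitals mark those letters, and each stretch lies in the 3′ untranslated part of a single exon. They lie at chr13:23739505-23739534 for Hist1h1c, chr11:58955165-58955194 for Hist3h2a, chr3:96246025-96246054 for Hist2h2aa1 and chr13:23531451-23531480 for Hist1h4h, all on the plus strand of GRCm38.
Hist1h1c: tccaaaaGGCTCTTTTCAGAGCCaccactc
Hist3h2a: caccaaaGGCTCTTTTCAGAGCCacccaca
Hist2h2aa1: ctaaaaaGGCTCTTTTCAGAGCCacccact
Hist1h4h: aaccaaaGGCCCTTTTCAGGGCCgcccaca

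A polyadenylation signal, AATAAA or ATTAAA within the last 50 bases of the same transcript, was present in 15 of 55 members (27.3%), against 14211 of 20149 genes (70.5%). The transcript ran on after the stem-loop for 840 bases in Hist1h1c, 1643 in Hist3h2a, 35 in Hist2h2aa1 and 46 in Hist1h4h. No stem-loop letters were found in the longest transcripts of Hist2h2be and Hist1h2bc. Other transcripts were not searched, and letters past an annotated end would be missed. The transcript searched for Hist1h2bc has 2 exons and 1156 bases, against a deposited length of 362, so it may not be the form that was measured. Capitals in the next lines mark the signal. The stretches, all in the 3′ untranslated part, lie at chr13:23740333-23740362 for Hist1h1c, chr11:58956788-58956817 for Hist3h2a, chr3:96223708-96223737 for Hist2h2be and chr13:23531479-23531508 for Hist1h4h, on the plus strand of GRCm38.
Hist1h1c: tatgcttctAATAAAaagcgtttagttttc
Hist3h2a: tatatgcccAATAAAataagagtacgtgta
Hist2h2be: attattattAATAAAgttaccgattagttt
Hist1h4h: cattttcttATTAAAagagcgaacatgtgt

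Clustered histone genes made up a small share of both libraries, and most of their signal came from 4 genes. Together the 56 genes held 7699 of 46133338 fragments in the wild-type library (0.0167%) and 6575 of 42953129 in the ILN/ILN library (0.0153%). Scaled by these library totals, the ILN/ILN sum was 0.917 times the wild-type sum (95% interval 0.887 to 0.948). Hist1h2bc, Hist1h1c, Hist2h2aa1 and Hist3h2a held 84.0% of the fragments of all members in wild type and 83.1% in ILN/ILN, so the sum is mainly a statement about these 4. In bulk tissue, fewer cells of a type and less RNA per cell cannot be told apart.

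Of the 56 members, 14 had at least 20 fragments over both libraries and were compared singly, 26 had between 1 and 15, and 16 were at 0 in both. The member just inside that limit was Hist1h2bb, with 29 fragments in wild type and 7 in ILN/ILN, and the one just outside was Hist1h2bg, with 8 and 7. The 26 low members held 71 fragments in wild type and 58 in ILN/ILN in all. Of these, 3 were at 0 in wild type alone and 9 in ILN/ILN alone, 14 had the higher scaled count in wild type and 12 in ILN/ILN. A count of 0 is taken to allow up to 3 fragments (a one-sided limit, where the exact two-sided 95% interval reaches 3.69), which for the 16 genes at 0 corresponds to deposited values of up to 0.0733 to 1.17 in wild type and 0.0788 to 1.25 in ILN/ILN, depending on length. A gene read as 0 in these files may therefore have a low level that was not detectable at this depth.

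**Figure D1:**
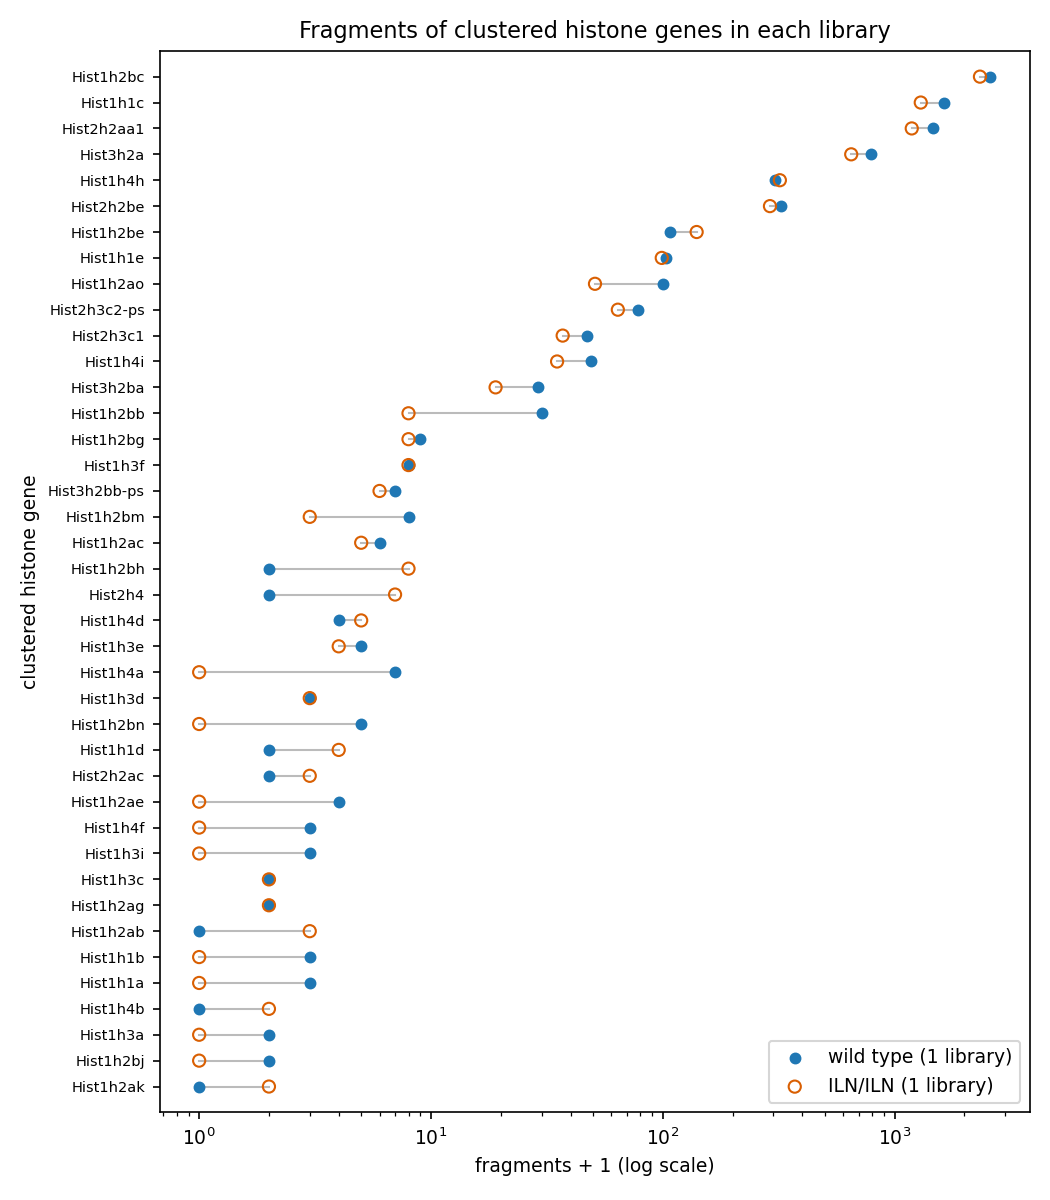
Fragments + 1 on a log axis for the 40 members with a fragment in either library, 1 filled point for the wild-type library and 1 open point for the ILN/ILN library. The 4 uppermost genes stand well above the rest, and both points of most genes lie close together beside the spread between genes.

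The deposited value is an FPKM-like level, a signal per kilobase divided by 1 constant for each library. For the members this signal is fragments per kilobase of deposited length, except for Hist1h2be in wild type, while in some other genes it comes from the authors' derived estimate. It allows levels of different genes to be compared. On that scale 15 of 56 members reached a value of 1 in wild type (26.8%) and 13 in ILN/ILN (23.2%), against 53.8% and 52.9% of all genes. The member with the highest value was the H2A gene Hist2h2aa1, at 162.88 in wild type and 141.754 in ILN/ILN, which placed it 579th and 644th of all genes. Next was the H2B gene Hist1h2bc, at 147.021 and 142.686, in places 629 and 638. Then came the H4 gene Hist1h4h, at 24.269 and 27.363, in places 2872 and 2635, and the H1 gene Hist1h1c, at 23.91 and 20.414, in places 2902 and 3297. In fragments the order differs, because the deposited length is 185 bases for Hist2h2aa1, 362 for Hist1h2bc and 1405 for Hist1h1c.

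Short length sets clustered histone genes apart from most rows of the table. The median deposited length was 234.5 bases, with a range of 53 to 2795, against a median of 2074 over all genes. In all, 35 members (62.5%) had a length under 300 bases, against 2.23% of all genes. The deposited length came to a median of 39.2% of the annotated transcript. It was 97.1% in Hist2h2be, 90.1% in Hist1h1c and 4.11% in Hist2h3c1, the lowest, while Hist2h2bb had 419 deposited bases on an annotated transcript of 381 (110%). Among the 12 members under 100 bases 7 were at 0 in both libraries and 1 had at least 20 fragments, while 75.2% of all genes of that length were at 0 in both. Among the 23 members of 100 to 300 bases 5 were at 0 in both and 4 had at least 20, beside 60.1% of all such genes at 0. Of the 14 members of 300 to 1000 bases 4 were at 0 and 4 had at least 20, beside 53.1% of such genes at 0. None of the 7 members of at least 1000 bases was at 0 in both, and 5 had at least 20 fragments, beside 13.2% of such genes at 0. Long members could also be low: Hist1h2ac (2186 bases) had 5 fragments in wild type and 4 in ILN/ILN, and Hist1h1d (2795 bases) had 1 and 3.

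**Figure D2:**
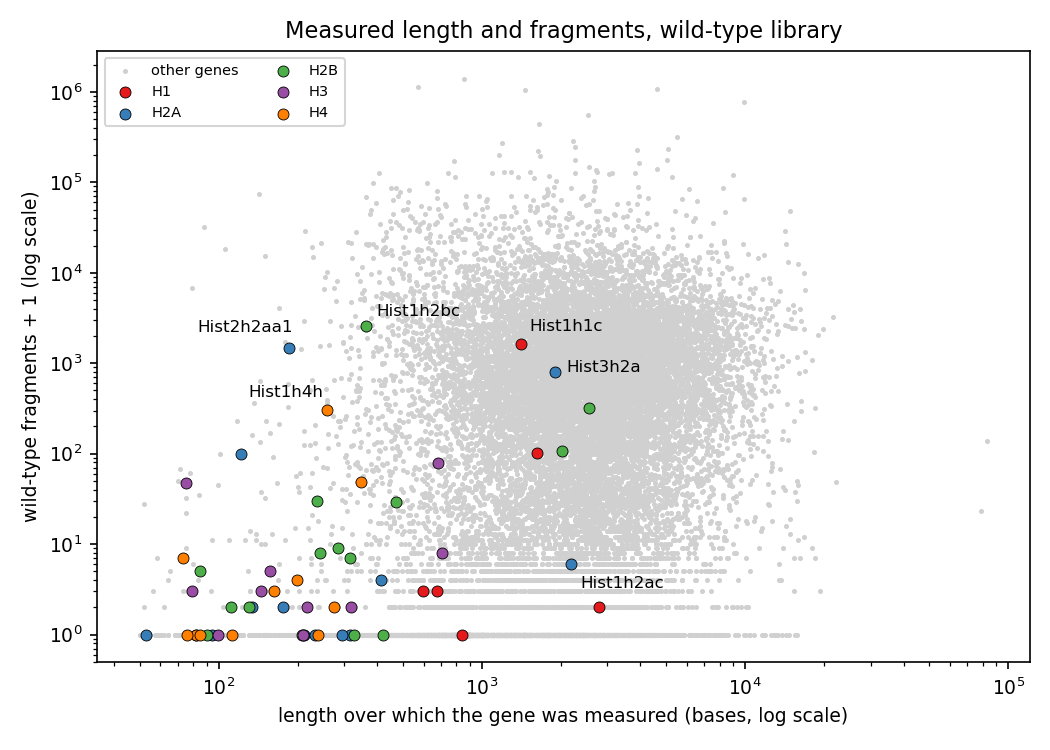
Wild-type fragments + 1 against deposited length, both on log axes, with 1 grey point per other gene and 1 coloured point per clustered histone gene by class. Most members lie to the left of the bulk of genes, 35 of them under 300 bases, and the 7 members of at least 1000 bases range from Hist1h1d with 1 fragment to Hist1h1c with 1631.

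The H1 genes code for linker histones, which bind the nucleosome from outside. The 6 members held 1738 fragments in wild type and 1397 in ILN/ILN, a ratio of 0.863 (0.804 to 0.927). Hist1h1c alone held 1631 and 1296 of these, a ratio of 0.853 (0.793 to 0.919). It was lower in the ILN/ILN library beyond counting error, by 1.17-fold. Hist1h1e, on chromosome 13 as well, had 102 fragments in wild type and 98 in ILN/ILN, values of 1.299 and 1.341 and a ratio of 1.03 (0.774 to 1.38). Its annotated exons overlap those of Hist1h2be on the same strand, and 23.8% of its 50-base stretches also occur in Hist1h2be, and how reads common to the pair were assigned is not known here, so both values are uncertain.

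The H2A genes held 2362 fragments in wild type and 1894 in ILN/ILN, a ratio of 0.861 (0.810 to 0.915). H2A pairs with H2B in the nucleosome core. Hist2h2aa1 had 1463 fragments in wild type and 1185 in ILN/ILN, a ratio of 0.870 (0.805 to 0.940). Only 10.6% of the 50-base stretches of its transcript occur in no other annotated gene, since 89.4% are also in the predicted gene Gm20634, which overlaps it on the same strand, so its level is uncertain. Hist3h2a had 790 and 649 fragments, deposited values of 8.568 and 7.563 and a ratio of 0.882 (0.794 to 0.980). Its annotated exons overlap the ubiquitin ligase gene Trim17 on the same strand, with which it shares 31.5% of its 50-base stretches. Hist1h2ao had 99 fragments in wild type and 50 in ILN/ILN, values of 16.852 and 9.145. Its ratio was 0.542 (0.378 to 0.770), but 93.5% of its 50-base stretches are also in Hist1h2ap, so the pair cannot be separated by sequence there.

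The H2B genes held most fragments of any class, 3095 in wild type and 2808 in ILN/ILN, a ratio of 0.974 (0.926 to 1.03). Hist1h2bc gave 83.5% of them in wild type and 83.1% in ILN/ILN, with 2584 and 2334 fragments and a ratio of 0.970 (0.917 to 1.03). Hist2h2be had 321 and 289 fragments, values of 2.599 and 2.514 and a ratio of 0.967 (0.822 to 1.14). For neither gene did the difference exceed counting error. All of the 50-base stretches of Hist2h2be, and 69.9% of those of Hist1h2bc, occur in no other annotated gene.

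The 3 remaining H2B members compared singly differed more between the libraries. Hist1h2bb had 29 fragments in wild type and 7 in ILN/ILN, values of 2.531 and 0.656, and was 3.86-fold lower in ILN/ILN (1.65 to 10.4). It is short, 236 bases, and 40.1% of its 50-base stretches are also in Hist1h2bk. Hist3h2ba had 28 and 18 fragments, values of 1.224 and 0.846 and a ratio of 0.690 (0.360 to 1.29), within counting error. Hist1h2be had 106 fragments in wild type and 139 in ILN/ILN, a ratio of 1.41 (1.09 to 1.83), and was the member with the highest ratio among the 14. It has 2 isoforms in the table, and it is the only member whose deposited value in a library, 1.098 in wild type, came from the authors' derived estimate rather than from these fragments. The ILN/ILN value, 1.521, came from the original estimate, and the deposited values thus went the same way as the fragments. The derived estimate per kilobase alone was 53.3 in wild type and 14.1 in ILN/ILN, opposite in direction to the original estimate of 52.4 and 68.7.

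H3 and H4 form the central tetramer of the nucleosome, and both classes held few fragments. Per length, the summed deposited values were 16.7 in wild type and 14.0 in ILN/ILN for H3, and 29.5 and 30.7 for H4, the latter above the H1 sums of 25.3 and 21.8. The 10 H3 genes held 140 fragments in wild type and 112 in ILN/ILN, a ratio of 0.859 (0.664 to 1.11). Hist2h3c2-ps had 77 and 63, and Hist2h3c1 had 46 and 36, so that these 2 held most of the class. The symbol Hist2h3c2-ps marks a pseudogene, but GENCODE names the gene Hist2h3c2 and annotates coding sequence in it. All 50-base stretches of Hist2h3c1 and 63.5% of those of Hist2h3c2-ps also occur in Gm20634, the gene that shares sequence with Hist2h2aa1. The 11 H4 genes held 364 fragments in each library, a ratio of 1.07 (0.926 to 1.25). Hist1h4h made up 304 of them in wild type and 319 in ILN/ILN, with values of 24.269 and 27.363 and a ratio of 1.13 (0.960 to 1.32). Hist1h4i had 48 and 34, a ratio of 0.761 (0.475 to 1.21). The single Hist4 gene, Hist4h4, was at 0 in both libraries. Its annotated transcript runs on 2445 bases after the stem-loop, but its deposited length was 238 bases, 8.31% of that transcript. Most of that tail was therefore not measured.

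**Figure D3:**
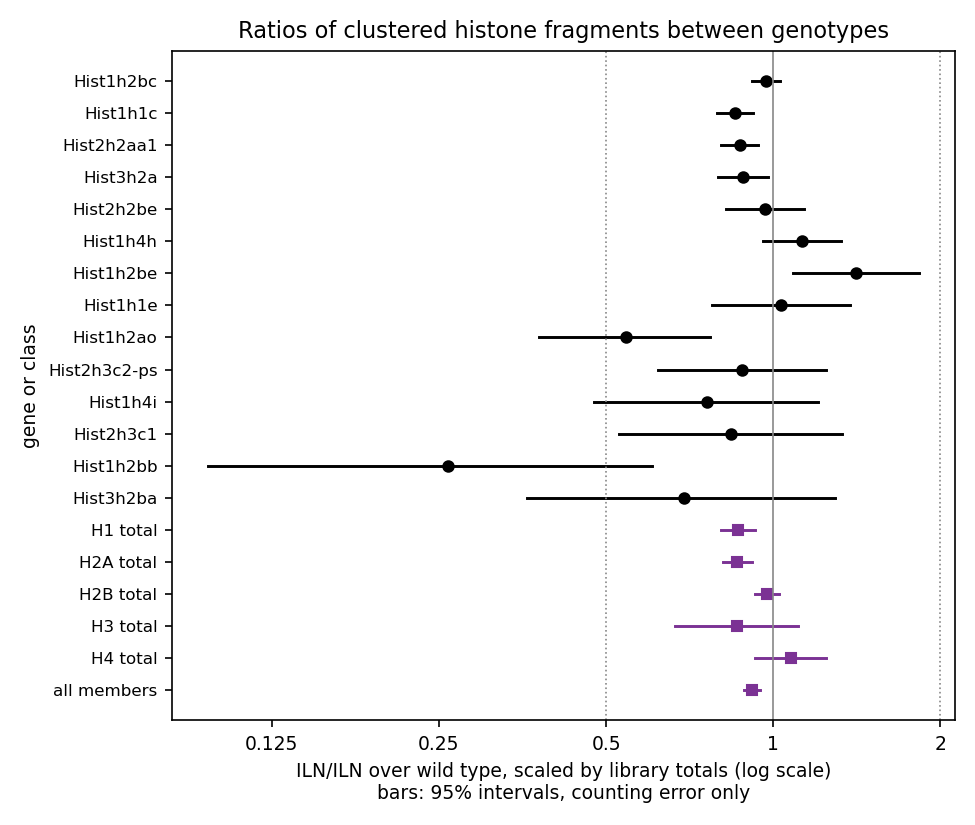
Ratio of fragments in the ILN/ILN library to the wild-type library, scaled by library totals, on a log axis for the 14 members with at least 20 fragments (black) and for the class and overall sums (purple), with 95% intervals for counting error. The solid line marks equal levels and the dotted lines 2-fold, which Hist1h2bb alone passes.

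Taking 2-fold as the limit for a called difference, 1 of the 14 members, Hist1h2bb, was lower in ILN/ILN and 0 were higher. Over the 14101 genes with at least 20 fragments, 6.28% were called lower and 1.65% higher by the same rule. At 1.5-fold 2 members were lower, Hist1h2bb and Hist1h2ao, and 0 higher, against 12.1% and 4.69% of genes. These shares are near the background at such small numbers and are not a result about histone genes, and the call of Hist1h2bb is lost where at least 50 fragments are required. In direction, 11 of the 14 had a ratio under 1 and 3 above it (Hist1h4h, Hist1h2be and Hist1h1e), with a median log2 ratio of -0.19. Over all these genes 49.7% were lower and the median was 0.00. Among the 390 genes with a deposited length under 500 bases, 63.6% were lower and the median was -0.12. In that group 7.95% were at least 2-fold lower and 1.54% as much higher, and 16.7% and 5.9% passed 1.5-fold.

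The annotated transcript ends were then set beside the levels. A member without a signal is one whose longest annotated transcript has none, and a signal past that end would be missed. The 15 members with a polyadenylation signal held 3284 fragments in wild type and 2786 in ILN/ILN, and the 40 without one held 4409 and 3784. The median deposited value was 1.224 in wild type and 0.846 in ILN/ILN for members with the signal, and 0.082 and 0.032 for those without. At a length of 236 bases, 3 fragments correspond to 0.262 in wild type and 0.281 in ILN/ILN, so the medians without the signal are near the floor. The groups were not matched for deposited length, and the share of genes at 0 falls with length. Of the former 8 had at least 20 fragments and 4 were at 0 in both libraries, and of the latter 6 and 12. Most fragments of the members without a signal came from Hist1h2bc and Hist2h2aa1. The share of member fragments from genes with a signal was 42.7% in wild type and 42.4% in ILN/ILN, nearly the same in both.

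Members with at least 20 fragments occurred with both long and short annotated transcript past the stem-loop. In 22 members the annotated transcript ran more than 100 bases past the stem-loop, and 8 of these had at least 20 fragments. In 14 members it ended within 100 bases, and 4 of these had at least 20: Hist2h2aa1 (35 bases past), Hist1h4h (46), Hist1h2ao (31) and Hist1h2bb (23). Of these 4, Hist2h2aa1 shares 89.4% of its 50-base stretches with Gm20634 and Hist1h2ao 93.5% with Hist1h2ap. Which gene their fragments came from is therefore uncertain. All stretches of Hist2h3c1, which runs 1167 bases past its stem-loop, are also in Gm20634. Hist1h4h has a polyadenylation signal of its own. Among the 19 without the stem-loop letters 2 had at least 20 fragments, Hist1h2bc and Hist2h2be, and 11 were at 0 in both. Some of the 19 have short annotated transcripts, such as 312 bases in Hist1h4k and 381 in Hist1h2bl. Letters past such an end could not be found, so their absence is a trait of the annotation and not shown for the gene. Conversely, long annotated tails did not always come with fragments: Hist1h2ac runs 2010 bases and Hist1h1d 4884 bases past the stem-loop, and both were low. The deposited length was 88.1% of the annotated transcript in Hist1h2ac but 37.6% in Hist1h1d. In Hist2h4 it was 274 bases, with 1257 annotated bases past the stem-loop. Annotated tails were thus not always measured in full. Whether the fragments of any gene came from polyadenylated ends or from stem-loop ends carried through the selection was not tested, since the tables give 1 sum per gene.

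**Figure D4:**
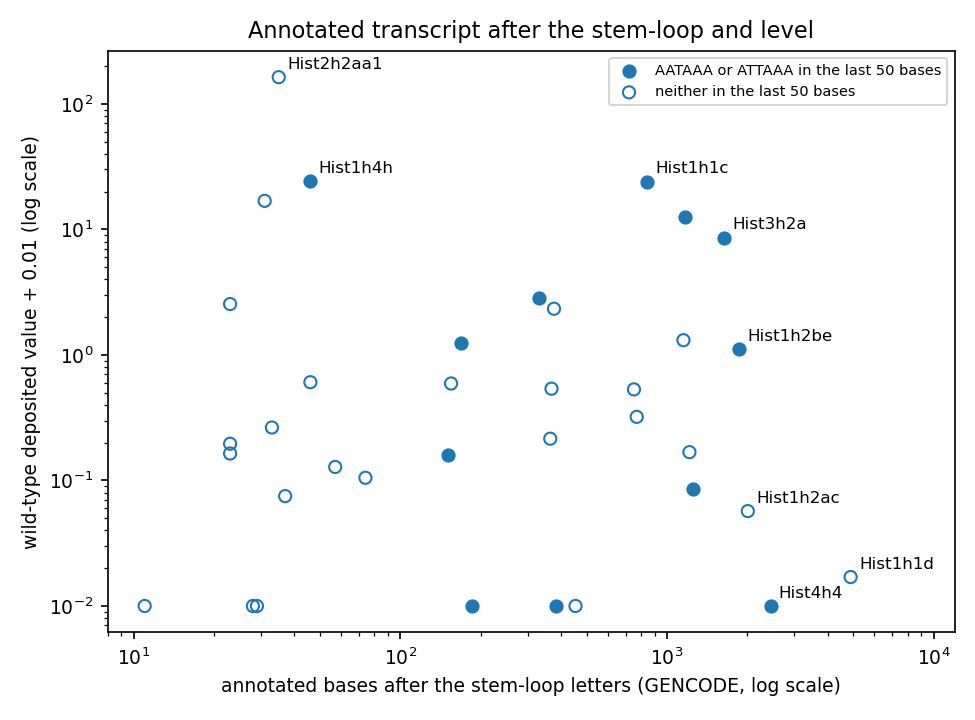
Wild-type deposited value + 0.01 against annotated bases after the stem-loop, both on log axes, for the 36 members with the stem-loop letters. Filled points have AATAAA or ATTAAA in the last 50 bases of the transcript. Hist2h2aa1, 35 bases past, is the highest, and Hist4h4, 2445 bases past but with a deposited length of 238 bases, is at 0. The level of Hist2h2aa1 is uncertain, since 89.4% of its 50-base stretches are also in Gm20634.

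Histone genes are often arranged head to head, an H2A and an H2B gene sharing the short stretch between their starts. There were 7 such pairs with starts at most 500 bases apart, and the 2 partners could differ widely. Hist1h2ac and Hist1h2bc, 251 bases apart on chromosome 13, had values of 0.047 and 147.021 in wild type and of 0.04 and 142.686 in ILN/ILN. Hist2h2ac and Hist2h2be, 239 bases apart on chromosome 3, had 0.118 and 2.599 in wild type and 0.253 and 2.514 in ILN/ILN, from 1 and 2 fragments of Hist2h2ac. In both pairs the H2B partner was the higher in each library. The other 5 pairs had at most 8 fragments per gene and library. The stretch between Hist1h2ac and Hist1h2bc is shown because the levels on its 2 sides lie furthest apart. It is the 250 bases before the RefSeq start of Hist1h2ac, chr13:23683960-23684209, minus strand of GRCm38.p6, and the start of Hist1h2bc lies at its 5′ end in the opposite direction. Capitals mark CCAAT (also as ATTGG on the other strand), TATAAA and the octamer ATTTGCAT (here as ATGCAAAT on the other strand).
Hist1h2ac: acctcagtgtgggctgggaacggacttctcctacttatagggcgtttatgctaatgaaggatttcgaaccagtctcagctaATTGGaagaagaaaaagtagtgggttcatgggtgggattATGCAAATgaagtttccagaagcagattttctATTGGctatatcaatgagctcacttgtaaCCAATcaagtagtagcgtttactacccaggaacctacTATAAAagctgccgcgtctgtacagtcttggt

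Over 300-base RefSeq windows, 250 before to 50 after a start, 51 windows of 50 members were compared with 32851 windows of all genes, both strands searched. Windows of head-to-head partners can overlap, so some sites, octamers among them, were counted in the windows of both partners. CCAAT, the letters that factor NF-Y is known to bind, was in 44 member windows (86.3%) against 37.4% of all. By class it was in 6 of 6 H1, 13 of 13 H2A, 14 of 14 H2B and 8 of 8 H3 windows, but in 3 of 10 H4 windows. TATAAA was in 28 (54.9%) against 13.6%. The octamer ATTTGCAT, bound by Oct-1 (the product of Pou2f1), was in 12 (23.5%) against 1.74%, of which 6 were H2A and 6 H2B windows. AAACACA, known as the H1 box, was in 9 (17.6%) against 7.18%, with 5 of the 6 H1 windows among them. The window of Hist1h4h, the H4 gene with most fragments, held none of the 4 motifs, and no window was at hand for Hist1h2bc and Hist2h2be. A match is a description of letters and shows no binding.

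In this polyadenylated RNA, unclustered histone genes gave much of the H1 and H3 signal. Clustered messages without a poly(A) tail were selected against, so the sums below are not total message levels. On the deposited per-length scale H1f0 and H1fx summed to 80.3 in wild type and 71.8 in ILN/ILN, above the 25.3 and 21.8 of the 6 clustered H1 genes. Unclustered H3 genes, 3 in number, summed to 358 and 366, above the 16.7 and 14.0 of the 10 clustered ones. For H2A the sums were of like size, 189 and 159 for 13 clustered genes and 183 and 132 for 6 unclustered ones. The clustered H2A sums rest mainly on Hist2h2aa1, at 162.88 in wild type and 141.754 in ILN/ILN. Its level is uncertain, since only 10.6% of its 50-base stretches occur in no other annotated gene, so the likeness is uncertain too. H3f3a, which codes for H3.3, had values of 294.782 and 310.581. H1f0, a linker histone of non-dividing cells, had 65.004 and 58.333. H2afz, which codes for H2A.Z, had 3784 fragments in wild type and 2129 in ILN/ILN and was 1.65-fold lower in ILN/ILN (ratio 0.604, interval 0.573 to 0.637). H2afy2, with 121 and 75 fragments, had a ratio of 0.666 (0.492 to 0.895). Of 16 listed unclustered histone genes 11 had at least 20 fragments. Of these 0 passed 2-fold either way, beside 6.28% of all genes lower and 1.65% higher. At 1.5-fold 2 were lower and 0 higher, beside 12.1% and 4.69% of all genes. In direction 10 were lower and 1 higher in ILN/ILN, where 49.7% of all genes were lower, and the median log2 ratio was -0.18.

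The factors that make histone messages were measured with most of their list, and none passed 2-fold. Of 20 genes for histone gene transcription and 3′ end processing 19 had at least 20 fragments, 12 lower and 7 higher in ILN/ILN, with a median log2 ratio of -0.07. Over all genes 49.7% were lower, and 6.28% and 1.65% were called 2-fold lower and higher. At 1.5-fold 1 of the list was lower and 0 higher, beside 12.1% and 4.69% of all genes. Slbp, which codes for the stem-loop binding protein, had 438 fragments in wild type and 330 in ILN/ILN, a ratio of 0.809 (0.699 to 0.936). Sympk, a scaffold of the cleavage complex, had 5013 and 5177, and Cpsf3, its endonuclease, 3310 and 3448, with ratios of 1.11 (1.07 to 1.15) and 1.12 (1.07 to 1.17). Zcchc11, an enzyme that adds uridines to RNA, had 1232 and 748 and the lowest ratio of the list, 0.652 (0.595 to 0.715).

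DNA replication genes were included because most clustered histone genes are known to be expressed with them. All 35 had at least 20 fragments, 0 passed 2-fold, 4 were at least 1.5-fold lower and 0 as much higher, beside the 12.1% and 4.69% of all genes. In direction 26 were lower and 9 higher in ILN/ILN, where 49.7% of all genes were lower, with a median log2 ratio of -0.27 against 0.00. Pcna, the sliding clamp of DNA polymerase, had 1719 fragments in wild type and 1133 in ILN/ILN, a ratio of 0.708 (0.656 to 0.763). Rrm2, a subunit of ribonucleotide reductase, had 151 and 74, a ratio of 0.526 (0.393 to 0.700). Prim1, a primase subunit, had 149 and 77, a ratio of 0.555 (0.416 to 0.736). Gins4, part of the replicative helicase, had 1475 and 1471 and a ratio of 1.07 (0.996 to 1.15), an interval that includes 1. Higher in ILN/ILN beyond counting error were Ccne1, a cyclin of S phase entry, with a ratio of 1.29 (1.102 to 1.505), and Pola2, a subunit of DNA polymerase alpha, with 1.16 (1.04 to 1.29), both named after their values were seen. Among 21 histone chaperone genes 0 passed 1.5-fold either way, 13 were lower and 8 higher, and the median was -0.04. Asf1b and Chaf1b, which carry new histones to copied DNA, had ratios of 0.674 (0.548 to 0.827) and 0.755 (0.570 to 0.997), and both genes are also on the replication list. Their ratios were the lowest among the chaperones, and that of Nap1l4 was the highest, 1.19 (1.15 to 1.24).

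**Figure D5:**
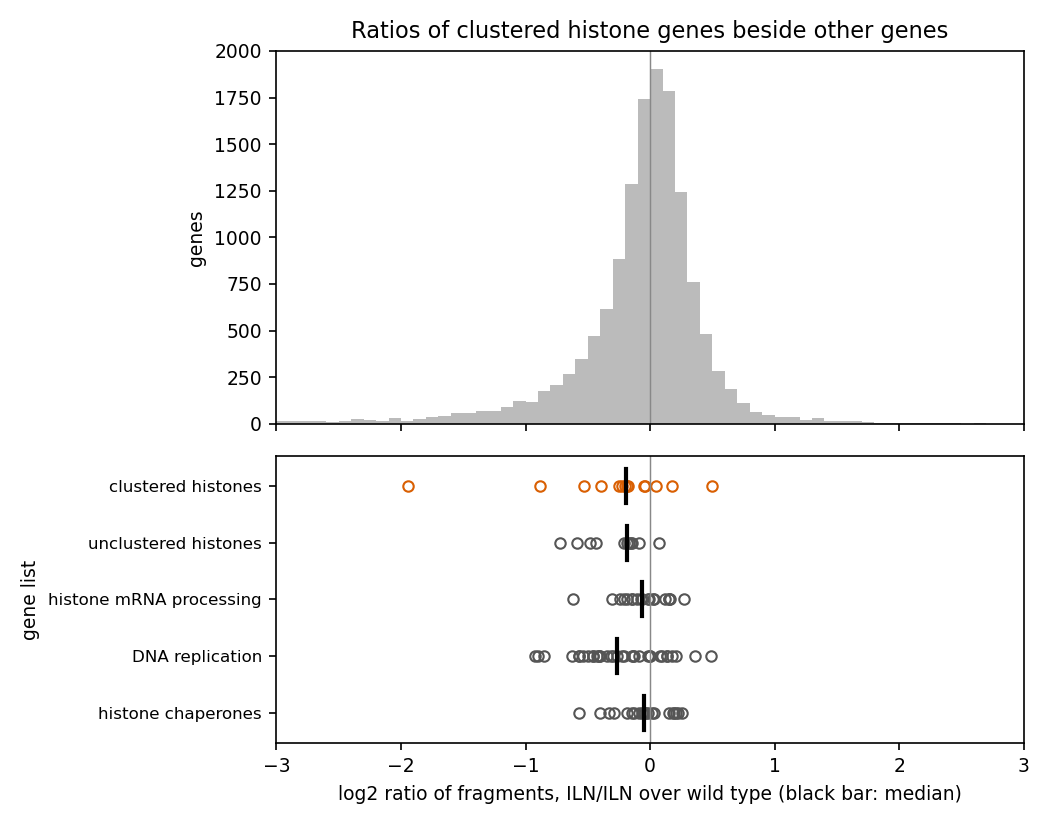
Upper panel, log2 ratio of fragments (ILN/ILN over wild type) for all genes with at least 20 fragments, in bins of 0.1, with 167 genes outside the axis. Lower panel, the same ratio for 14 clustered and 11 unclustered histone genes and the 3 other lists, 1 point per gene, with a black bar at each median. The medians lie between -0.27 for DNA replication and -0.04 for chaperones.

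The 2 libraries also differed in cell type markers, given here as summed deposited values. Counts are of markers at least 2-fold apart, where 6.28% of all genes with at least 20 fragments were lower and 1.65% higher. Ltf is on both the luminal and the neutrophil list and is counted in each. All 8 luminal epithelial markers were at least 2-fold lower in ILN/ILN, 43.6 in wild type against 0.934, with Krt8 and Elf5 at 0 there. Basal epithelial markers summed to 8.78 and 6.30, 3 of 5 at least 2-fold lower, with Krt5, Krt14 and Krt17 at 0 in ILN/ILN. B cell markers were lower in 7 of 7 (187 and 35.0), T cell markers in 6 of 7 (60.6 and 20.5), neutrophil markers in 5 of 5 (319 and 62.7) and erythroid markers in 2 of the 4 with at least 20 fragments (14462 and 6701, Hbb-b2 at 0 in ILN/ILN). Adipocyte markers (81725 and 72155), macrophage (1889 and 1228), endothelial (93.7 and 108) and fibroblast markers (2100 and 2254) had 0 genes past 2-fold. The part of these differences in the histone ratios was not tested. The microRNAs of the targeted locus were not analysed here, so the tables give no check of the genotype labels.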

How the data were processed

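Polyadenylated mammary gland RNA was sequenced with a dUTP strand-marking protocol on 2 lanes per sample, per the labels' protocols. Per the submitters' processing notes Bowtie 0.12.3, TopHat 1.4.1 and bedtools were used with build mm9. The sources used here do not say which program counted, on which annotation, whether strand was used or how reads matching several places were handled. The authors deposited 1 table per sample. Per the file headers it holds an FPKM-like value, its log2 (of the value + 1) and a signal per kilobase as 3 columns (original, derived, final), besides a length. The deposited original signal times the length was whole to within 3.84e-09 in every gene, and this product is called fragments. Whether it counts reads or pairs is not given.

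Fragments were scaled by their library totals, 46133338 and 42953129. Ratios have exact conditional (Clopper-Pearson) 95% intervals, for counting error only, because there was 1 library per genotype. The intervals treat fragments as independent. Copies made by PCR cannot be told from separate molecules, so the intervals may be too narrow even for counting error. Genes with at least 20 fragments summed were compared, and 2-fold was the call. The steps were tested on simulated data. Python 3.11.15 with pandas 2.3.3 and scipy 1.17.1 was used. Transcript ends and positions came from the GENCODE M21 annotation, promoters from RefSeq, both GRCm38 and not the build of the files, so they describe the genes and not the reads.

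Every member with at least 20 fragments could be named, and from each other list the 3 with most fragments and up to 4 with the largest absolute log2 ratio. Hist1h2ac, Hist1h1d, Hist2h2ac, Hist2h2bb and Hist4h4 were named after their values were seen, for their length, position or pairing. The members and lists were chosen with earlier results of these data known. Alternatives covered scaling, measure, minimum, pseudocount, fold, short members and the leading member.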

Additional observations from a re-analysis of the deposited data

How the results depend on the processing

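Over 175 recomputed values of 35 results, 165 stayed within tolerance and 10 moved. Some alternatives could hardly move a result. The 2 other scalings took the overall ratio only from 0.917 to 0.915, and H1, at 0.863, has no member under 300 bases to leave out. The count of 165 is therefore no measure of robustness by itself. The tolerance was the counting-error interval of the main value for ratios, 0.1 for median log2 ratios and 1.5 times for counts. These intervals are wide for genes with few fragments, so some ratios counted as unmoved although they shifted by more than 0.1 on the log2 scale. Among them, on the deposited value + 1, Hist1h2bb went from 0.259 to 0.469, Hist3h2ba from 0.690 to 0.830 and Hist1h2be from 1.41 to 1.20. The H1 and H4 ratios crossed 1: without Hist1h1c the H1 ratio turned from 0.863 to 1.01, and the H4 ratio turned from 1.07 to 0.761 without members under 300 bases and to 0.806 without Hist1h4h. Members at least 2-fold lower numbered 0 without those under 300 bases, 0 at a minimum of 50 fragments, 2 at 1.5-fold, and 9 with no minimum and 1 fragment added, where 6 were also 2-fold higher. At a minimum of 10 fragments 1 processing gene was 2-fold higher, and on the deposited value + 1 1 replication gene was 2-fold lower. An alternative chosen after seeing the data left out the 20 members of whose 50-base stretches under 50% are only in that gene: the overall ratio was 0.936, the median log2 ratio -0.11 and the count of lower members 1. The causes were not tested. No paired analysis was possible because each genotype has 1 library, and for the same reason no replicate could be left out. Depth limits short members most: 16 of 56 were at 0 in both libraries, where up to 3 fragments remain possible.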
